A study of Mus musculus with 18 samples.

Results

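Respiratory complex I was followed here through the transcripts of its nuclear subunit genes in mouse kidney cortex. The subunit genes were taken by name, as every row of the expression table whose symbol begins with Nduf, then one of the letters a, b, c, s or v, then a digit. The pattern found 37 of 24062 rows. Of these, 36 reached 1 RPKM (reads scaled by transcript length and library depth) in at least 3 of 18 libraries and were tested among 13624 genes. The pattern leaves out the assembly factors, which are described apart, and Ndufab1, the mitochondrial acyl carrier protein that is also a complex I subunit.

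Complex I takes electrons from NADH in the mitochondrial matrix, passes them along a flavin and a chain of iron-sulfur clusters to ubiquinone, and pumps protons across the inner membrane. Its matrix arm holds the electron input (N) module and the quinone (Q) module. Its membrane arm is built from mitochondrially encoded pumps and nuclear accessory subunits, and the proximal tubule of the kidney is rich in mitochondria because its transport depends on oxidative metabolism.

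RNA came from kidney cortex of C57Bl/6 mice, taken after PBS perfusion. The control genotype, Klf15fl/fl (fl/fl below), has a floxed Klf15, which encodes a Krüppel-like transcription factor. In Klf15PTKO mice (PTKO) the gene was knocked out in the proximal tubule. Each genotype was given DMSO, the vehicle (groups fl/fl DMSO and PTKO DMSO), aristolochic acid I, a plant toxin of the proximal tubule, over 2 weeks (fl/fl AA 2wk and PTKO AA 2wk), or that course and then 2 weeks of remodeling (fl/fl AA 4wk and PTKO AA 4wk). There were 6 groups of 3 libraries. Age, Cre line and deleted exons were not given in the sources used here. Mice with Cre and an intact Klf15 are not among the labelled groups, so Cre and the loss of Klf15 cannot be told apart. Vehicle libraries carry no week and served both courses within a genotype, and the labels do not say that replicates were separate mice, so the p-values measure the spread between libraries only.

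The recovered depth ran from 10980643 to 21922497 reads per library. Klf15 stood at 53.0, 61.3 and 65.5 RPKM in the fl/fl DMSO libraries and at 28.5, 31.9 and 32.6 in the PTKO DMSO libraries, without overlap, although its difference of -0.93 ± 0.26 (log2, SE) was not called by limma (adjusted p = 0.595). Klf15 also fell against DMSO in each AA group, by limma. Its mean was 27.6 RPKM in fl/fl AA 2wk, 18.5 in PTKO AA 2wk, 15.0 in fl/fl AA 4wk and 9.15 in PTKO AA 4wk. The changes were -1.17, -0.76, -1.95 and -1.65 (log2) in that order. Every fl/fl AA 4wk library thus lay below every PTKO DMSO library. The 15 proximal tubule markers summed to between 49531 and 61934 RPKM in the fl/fl DMSO libraries and to between 55796 and 61262 in the PTKO DMSO libraries, which fits the labelled tissue. The libraries numbered 3 of both AA 2wk groups stood apart from the other 2 of their group, and results that rest on them are given with and without them.

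The promoters of the subunit genes are shown first, to set the motifs that these genes do and do not share beside their responses. RefSeq windows (GRCm38.p6, the assembly behind mm10) matched 32 of the 37 genes in 34 windows, and the 250 bases before each start were searched on both strands. NRF1 is a transcription factor known to bind promoters of nuclear respiratory genes. Its palindromic motif, with 1 base left free, was in 7 windows (20.6%) of 6 genes, Ndufa5, Ndufa8, Ndufa11, Ndufb4, Ndufs5 and Ndufs6, against 7.35% of 13009 windows of tested genes and 3.74% of 32851 windows in all. The 1 match of Ndufa5 was counted in both of its overlapping windows. Ndufb4, of the distal membrane arm, held 3 matches, more than the other 5 genes. The estrogen-related receptor motif AAGGTCA was in 3 windows (8.82% against 3.08% of tested genes), the ETS motif CCGGAAG in 3 (8.82% against 12.4%), and the TATA box TATAAA in 5 windows of 4 genes (14.7% against 6.88%, and 12.4% of all windows), with 1 match of Ndufa7 counted in both of its overlapping windows. The YY1 motif was in 0 windows (0.607% of tested genes). The CACCC box CCACACCC, the kind of site that Krüppel-like factors bind, was in 1 window (2.94% against 3.51%), that of Ndufb7. Only this exact string was searched, so variants of the site were not counted and a window without it may hold one.

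These 5 windows lie before the annotated gene body and were chosen for the spread of the responses described below. Ndufv3 was among the 3 lowest after aristolochic acid in each comparison with DMSO, Ndufa7 was called in none of them, Ndufb6 and Ndufb2 were among the 3 called between the AA groups in PTKO, and Ndufa11 carries an NRF1 match. Each runs 5′ to 3′ on the strand of its gene, with motif matches in capitals: TATA box read on the opposite strand in Ndufa7, ETS on the opposite strand in Ndufb6, ERR in Ndufb2 and NRF1 in Ndufa11. The Ndufv3 window holds none of the 6 motifs as searched.
Ndufv3 (chr17:31519865-31520114, plus strand): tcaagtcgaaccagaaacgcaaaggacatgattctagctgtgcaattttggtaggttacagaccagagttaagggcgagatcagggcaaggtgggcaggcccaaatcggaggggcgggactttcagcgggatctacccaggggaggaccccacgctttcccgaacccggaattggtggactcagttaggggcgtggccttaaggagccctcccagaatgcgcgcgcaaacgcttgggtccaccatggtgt
Ndufa7 (chr17:33824322-33824571, plus strand): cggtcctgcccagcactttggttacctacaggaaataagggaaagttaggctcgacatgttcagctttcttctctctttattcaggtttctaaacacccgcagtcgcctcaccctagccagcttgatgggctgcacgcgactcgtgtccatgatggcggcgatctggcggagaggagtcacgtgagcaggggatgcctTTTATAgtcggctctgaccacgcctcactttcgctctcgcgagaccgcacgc
Ndufb6 (chr4:40279422-40279671, minus strand): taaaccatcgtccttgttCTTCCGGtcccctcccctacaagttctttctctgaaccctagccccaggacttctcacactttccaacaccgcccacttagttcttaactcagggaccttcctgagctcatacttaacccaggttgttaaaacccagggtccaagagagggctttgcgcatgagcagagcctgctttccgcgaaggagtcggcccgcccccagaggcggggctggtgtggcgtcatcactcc
Ndufb2 (chr6:39592315-39592564, plus strand): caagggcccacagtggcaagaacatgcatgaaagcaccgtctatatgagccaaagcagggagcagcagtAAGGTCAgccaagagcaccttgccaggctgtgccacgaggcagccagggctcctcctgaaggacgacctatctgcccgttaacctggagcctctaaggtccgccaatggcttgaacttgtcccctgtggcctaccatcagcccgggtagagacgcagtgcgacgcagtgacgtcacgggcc
Ndufa11 (chr17:56717512-56717761, plus strand): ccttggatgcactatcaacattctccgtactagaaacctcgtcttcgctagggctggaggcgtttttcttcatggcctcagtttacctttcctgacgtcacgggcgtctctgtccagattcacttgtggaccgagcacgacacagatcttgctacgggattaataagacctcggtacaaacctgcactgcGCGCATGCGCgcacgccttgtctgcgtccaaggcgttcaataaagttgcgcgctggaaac

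In the vehicle-treated cortex the subunit genes were abundant and uneven. Per length, the median of the 36 in fl/fl DMSO was 149 RPKM. Ndufa4, now known as a subunit tied to complex IV, stood highest at 601 ± 122 RPKM (SD, n = 3), and Ndufa4l2, its hypoxia-induced relative, stood lowest at 4.63 ± 2.25. Of the fixed subunits, Ndufa3 (371 RPKM), Ndufb9 (358) and Ndufb8 (345) led. The libraries of Ndufb9 overlapped those of Ndufa3 and of Ndufb8, and those of Ndufa3 and Ndufb8 did not overlap. Ndufa11 was the lowest fixed subunit at 27.5 RPKM, but its deposited values imply a gene model of 2661 bases where its merged GENCODE exons hold 1092, so its level per length is understated. Ndufa4 stayed first and Ndufa4l2 last in all 6 groups.

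Ndufs5, an accessory subunit of the membrane arm, was listed at 0 in every library but fl/fl DMSO library 2, where it had 0.113 RPKM from 1 read. An annotated pseudogene matches 60.8% of its transcript at 99.37% identity, so its value is uncertain, and it was not tested. Ndufs3, Ndufs6 and Ndufb11 also have an annotated copy at 95% identity or more over at least 50% of the transcript, so their values are uncertain too. No mitochondrially encoded subunit was analysed here.

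**Figure D1:**
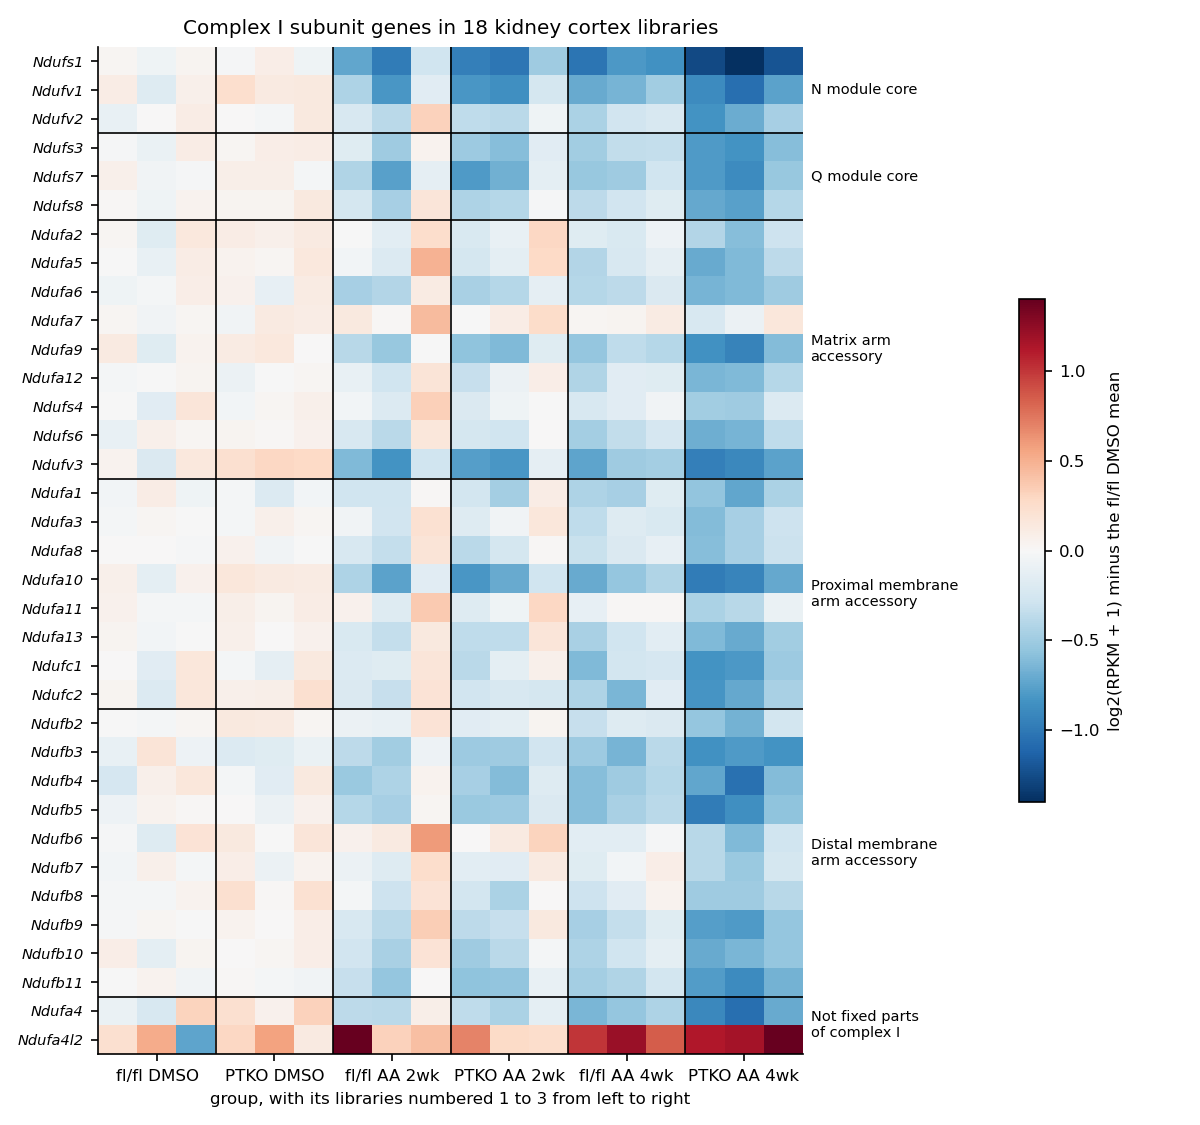
Heat map of 35 of the 36 tested genes (rows, by role) in 18 libraries (columns, by group, replicates 1 to 3 from left to right). Colour is log2(RPKM + 1) minus the fl/fl DMSO mean and stops at 1.4 either way. PTKO AA 4wk is the darkest blue block, the third library of each AA 2wk group is paler than its neighbours, and the row of Ndufa4l2 is red in both AA 4wk groups.

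Aristolochic acid was followed by lower complex I transcripts in both genotypes, most of all in PTKO mice after remodeling. Summed over the 36 genes, the group means were 6503 RPKM in fl/fl DMSO, 6799 in PTKO DMSO, 5837 in fl/fl AA 2wk, 5432 in PTKO AA 2wk, 5125 in fl/fl AA 4wk and 4150 in PTKO AA 4wk. The sum over all tested genes fell too. Per library it was 454158 to 470770 RPKM in fl/fl DMSO and 421316 to 433753 in fl/fl AA 2wk. In PTKO it was 462723 to 469170 in DMSO and 411210 to 426717 in AA 4wk. The mean of PTKO AA 4wk was the lowest of the 6 groups for 35 of the 36 genes, all but Ndufa4l2. In bulk tissue, fewer cells of a type and less RNA per cell cannot be told apart.

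By limma at an adjusted p under 0.05, 7 of 36 genes fell and 0 rose in fl/fl AA 2wk against DMSO, where 12.2% of all tested genes fell and 50.4% rose. PTKO AA 2wk had 16 lower and 0 higher (14.3% and 45.9% of all genes). For fl/fl AA 4wk 18 fell (14.3%) and Ndufa4l2 rose (51.9% of all genes rose). In PTKO AA 4wk 34 fell (17.3%), Ndufa4l2 rose (55% of all genes rose), and Ndufa7 alone was not called, at -0.10 ± 0.11 (log2, SE, adjusted p = 0.42 by limma). The median changes were -0.14, -0.29, -0.32 and -0.67 (log2) in that order. All 3 AA libraries lay below all 3 DMSO libraries for 5, 20, 26 and 34 genes (12.3%, 16%, 16.6% and 19.9% of all genes). They lay above them for 2 genes in fl/fl AA 4wk (55.6% of all genes), Ndufa4l2 and Ndufa7, and for Ndufa4l2 in PTKO AA 4wk (60.5%). The median of all tested genes was +0.33, +0.29, +0.35 and +0.40, and the subunit median lay at -0.47, -0.58, -0.67 and -1.07 relative to it, and 35, 36, 35 and 35 of the 36 lay below it.

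This count depends on the scaling. With median-of-ratios scaling 28, 29, 34 and 35 genes fell, with voom on recovered reads 27, 31, 34 and 35, and with quantile normalization 3, 9, 7 and 26. The shares of all genes that fell were then 27.5%, 27.1%, 29.9% and 33% with median-of-ratios scaling and 29.7%, 27.7%, 33.8% and 36.5% with quantile normalization, so with the latter the subunit count stood above the share of all genes in PTKO AA 4wk alone. Array weights gave 13 and 30 at AA 2wk, and the fl/fl AA 2wk count was 12 with a replicate block and 2 in a fit of those groups alone. No share of all genes is given for voom, array weights, the block or that fit, so their counts are a description only. Quantile normalization also called 1 subunit gene higher in each fl/fl comparison. The share of higher among all called genes was 80.5% in fl/fl AA 2wk on the deposited scale, 50.8% with median-of-ratios scaling and 44.8% with quantile normalization. In the same order it was 76.3%, 49.9% and 46.7% in PTKO AA 2wk, 78.4%, 50.7% and 43.8% in fl/fl AA 4wk, and 76.1%, 50.7% and 44.5% in PTKO AA 4wk. Relative to all genes, quantile normalization put the subunit median at +0.06, -0.13, -0.07 and -0.40 in the 4 comparisons, so in fl/fl AA 2wk its direction depends on the scaling.

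**Figure D2:**
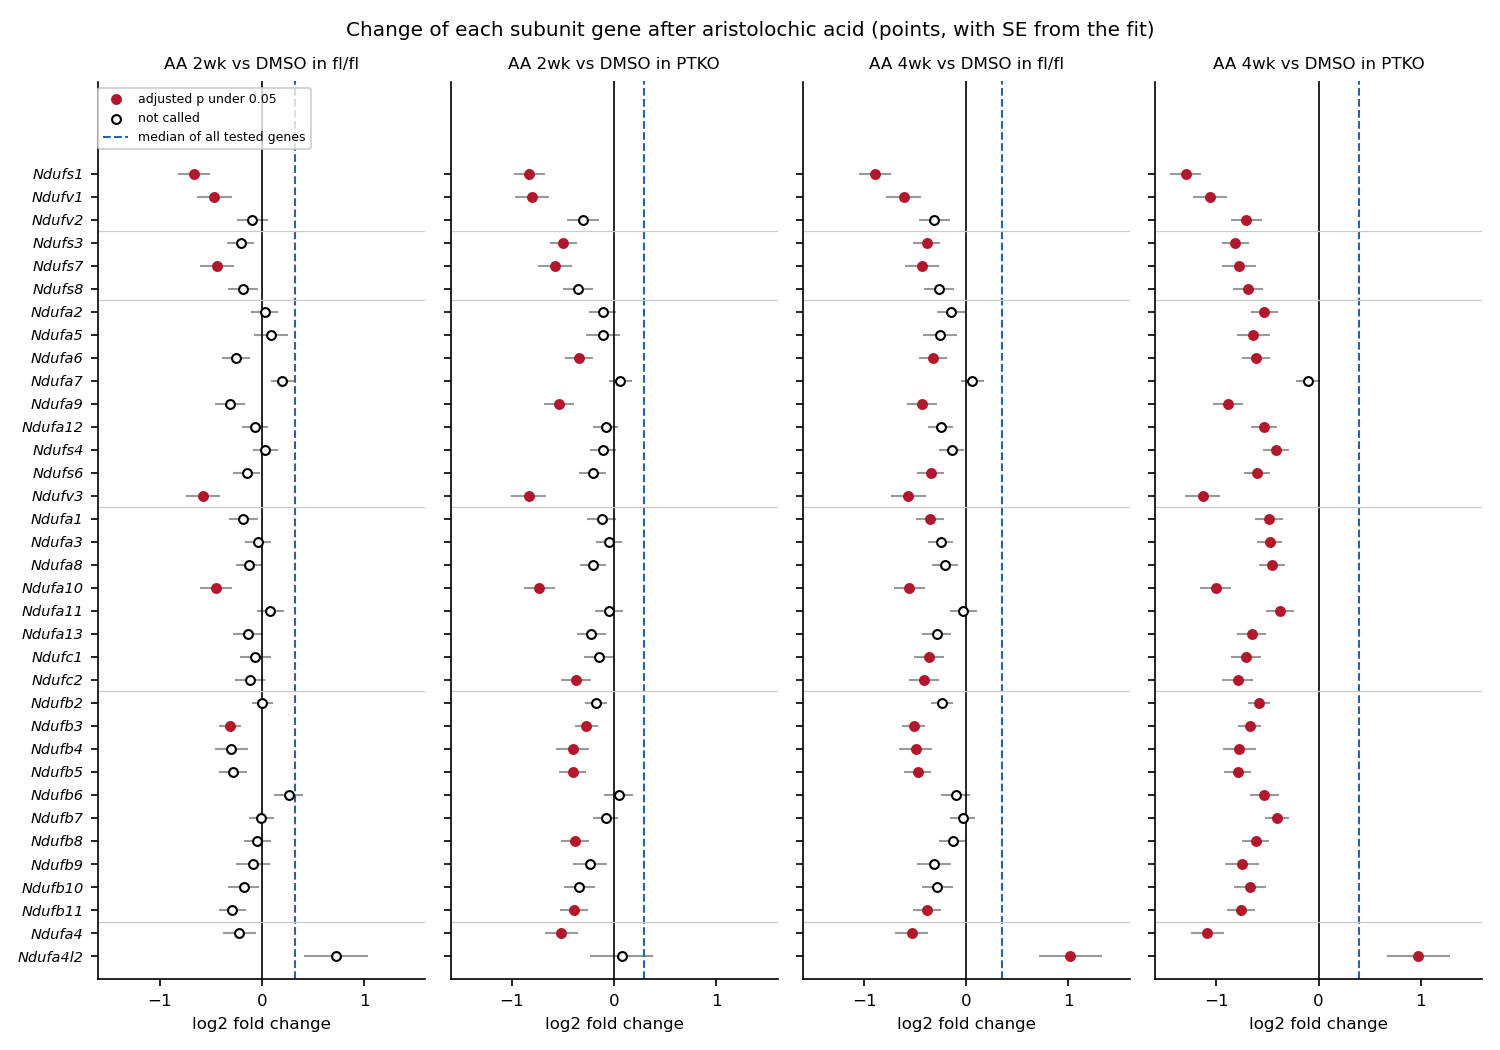
Log2 fold change (x axis) of each of the same 35 genes (rows, by role, in the order of the heat map) against DMSO of the same genotype in 4 panels, with the SE from the fit as bars. Red points passed an adjusted p of 0.05, and the dashed line is the median of all tested genes. In PTKO AA 4wk 33 of the genes shown are red and left of 0.

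The N module core takes the electrons in, and 2 of its 3 nuclear subunits, Ndufs1 and Ndufv1, fell in all 4 comparisons. Gene positions are those of GENCODE vM21 on GRCm38. Ndufs1 (chr1:63143596-63176833 on the minus strand), which carries iron-sulfur clusters, read 131, 123 and 132 RPKM in fl/fl DMSO, 127, 138 and 123 in PTKO DMSO, 77.0, 64.7 and 105 in fl/fl AA 2wk, 66.0, 63.1 and 91.0 in PTKO AA 2wk, 62.6, 73.1 and 70.9 in fl/fl AA 4wk, and 53.2, 47.7 and 54.9 in PTKO AA 4wk. Every AA library lay below every DMSO library, and every PTKO AA 4wk library lay below every fl/fl AA 4wk library. Ndufs1 fell by 0.66 ± 0.15, 0.83 ± 0.15, 0.89 ± 0.15 and 1.30 ± 0.15 (log2, SE) in fl/fl AA 2wk, PTKO AA 2wk, fl/fl AA 4wk and PTKO AA 4wk (limma adjusted p from 0.0019 to 4.7e-06).

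Ndufv1 (chr19:4007384-4012806 on the minus strand), which binds the flavin and NADH, read 194, 160 and 190 RPKM in fl/fl DMSO, 212, 198 and 199 in PTKO DMSO, 134, 103 and 162 in fl/fl AA 2wk, 102, 99.4 and 152 in PTKO AA 2wk, 111, 115 and 128 in fl/fl AA 4wk, and 98.0, 86.5 and 107 in PTKO AA 4wk. Library 3 of fl/fl AA 2wk overlapped the lowest DMSO library, and in the other 3 comparisons with DMSO the groups did not overlap. It fell by 0.47 ± 0.17, 0.80 ± 0.17, 0.61 ± 0.17 and 1.06 ± 0.17 (log2, SE) in the 4 comparisons. The adjusted p in fl/fl AA 2wk was 0.026 by limma, and the call was lost without fl/fl DMSO library 1 (0.084), fl/fl DMSO library 3 (0.074) or fl/fl AA 2wk library 2 (0.15). Over all alternatives it ran from 0.00045 to 0.15.

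Ndufv2 (chr17:66078638-66101559 on the minus strand), the iron-sulfur partner of Ndufv1, read 131, 142 and 153 RPKM in fl/fl DMSO, 142, 139 and 156 in PTKO DMSO, 121, 109 and 177 in fl/fl AA 2wk, 110, 108 and 136 in PTKO AA 2wk, 104, 117 and 121 in fl/fl AA 4wk, and 78.5, 87.0 and 102 in PTKO AA 4wk. It fell in PTKO AA 4wk, by 0.71 ± 0.15 (log2, SE, limma adjusted p = 0.00081). Its values in fl/fl AA 2wk, PTKO AA 2wk and fl/fl AA 4wk were -0.09, -0.30 and -0.31 (log2), none of them called.

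The Q module core hands electrons to ubiquinone. Ndufs7 (chr10:80249121-80256794 on the plus strand), which carries the last iron-sulfur cluster before ubiquinone, read 148, 136 and 139 RPKM in fl/fl DMSO, 149, 149 and 139 in PTKO DMSO, 105, 83.1 and 129 in fl/fl AA 2wk, 81.1, 88.2 and 128 in PTKO AA 2wk, 97.4, 99.7 and 116 in fl/fl AA 4wk, and 81.3, 76.2 and 97.2 in PTKO AA 4wk. AA libraries lay below the DMSO libraries in all 4 comparisons, and the change was -0.44, -0.58, -0.43 and -0.78 (log2, SE 0.17). Its calls in fl/fl were less steady: at AA 2wk the limma adjusted p of 0.033 passed 0.05 without fl/fl DMSO library 1 (0.091) or 3 (0.064), or fl/fl AA 2wk library 1 (0.066) or 2 (0.17). At AA 4wk the 0.032 did so without fl/fl DMSO library 1 (0.088) or 3 (0.062), or fl/fl AA 4wk library 1 (0.095) or 2 (0.086). Over all alternatives the first ran from 0.00047 to 0.17 and the second from 0.002 to 0.17.

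Ndufs3 (chr2:90894634-90904827 on the minus strand), a scaffold of the Q module, read 86.4, 81.6 and 94.2 RPKM in fl/fl DMSO, 89.2, 93.1 and 93.6 in PTKO DMSO, 77.6, 61.3 and 90.3 in fl/fl AA 2wk, 60.8, 57.2 and 78.3 in PTKO AA 2wk, 62.2, 68.4 and 69.0 in fl/fl AA 4wk, and 49.9, 48.5 and 57.3 in PTKO AA 4wk. It was not called in fl/fl AA 2wk (-0.21) and fell by 0.50, 0.39 and 0.82 (log2, SE 0.13) in PTKO AA 2wk, fl/fl AA 4wk and PTKO AA 4wk. The call in fl/fl AA 4wk (limma adjusted p = 0.018) was lost without fl/fl DMSO library 3 (0.068) or fl/fl AA 4wk library 1 (0.065), in a range of 0.0011 to 0.068. Ndufs8 (chr19:3908863-3912774 on the minus strand), which carries iron-sulfur clusters of the Q module, read 152, 144 and 155 RPKM in fl/fl DMSO, 155, 154 and 165 in PTKO DMSO, 127, 109 and 169 in fl/fl AA 2wk, 111, 114 and 149 in PTKO AA 2wk, 117, 125 and 134 in fl/fl AA 4wk, and 91.5, 88.5 and 114 in PTKO AA 4wk. Its PTKO AA 2wk and both AA 4wk groups lay wholly below DMSO, yet it was called in PTKO AA 4wk alone, at -0.69 ± 0.15 (log2, SE), while PTKO AA 2wk stood just outside at -0.35 (limma adjusted p = 0.051).

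**Figure D3:**
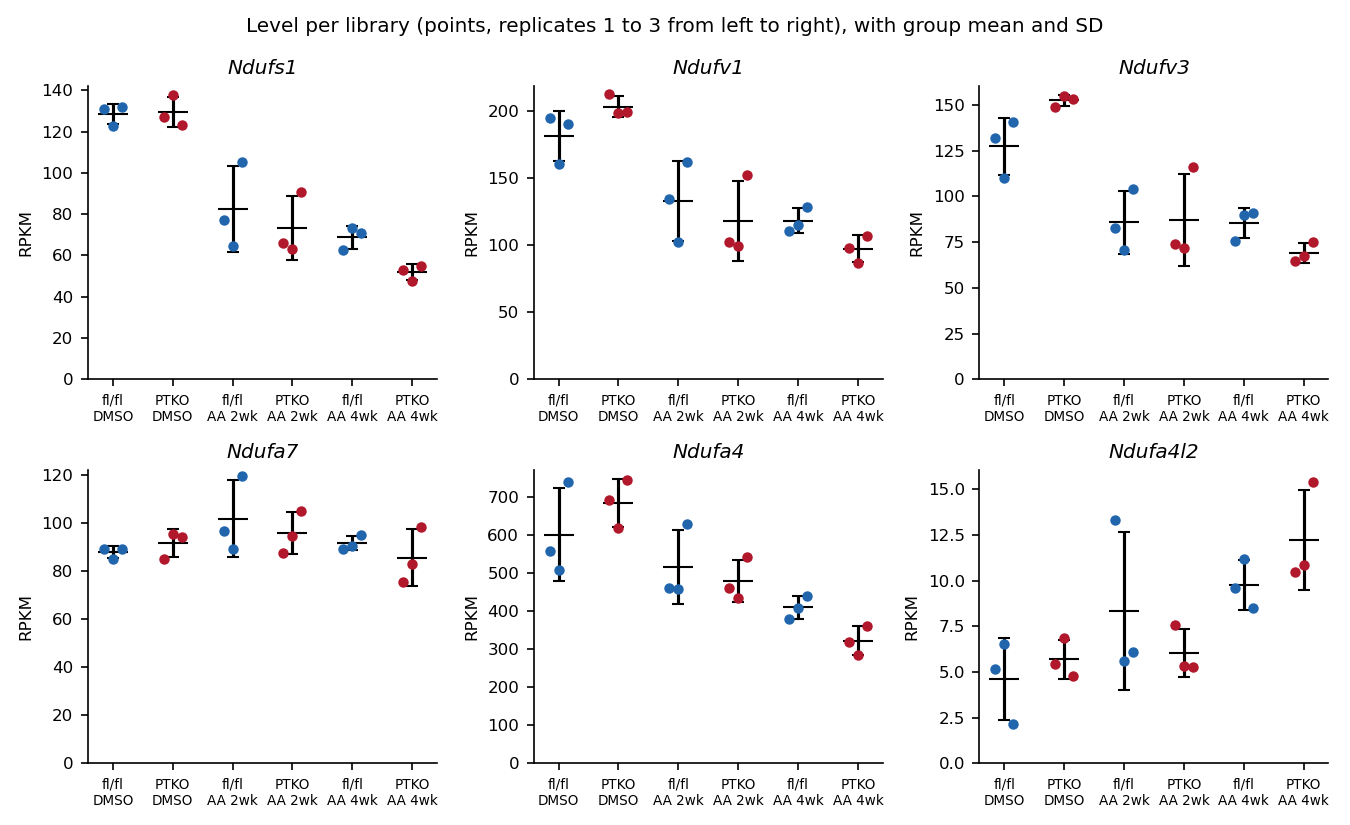
RPKM of 6 genes (y axes, from 0) by group (x axis). Points are libraries, replicates 1 to 3 from left to right, blue for fl/fl and red for PTKO, with the group mean and SD. Ndufs1, Ndufv1 and Ndufv3 step down from DMSO to PTKO AA 4wk, Ndufa7 stays between 75.4 and 120 RPKM, and Ndufa4 and Ndufa4l2 move apart.

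The 9 accessory subunits of the matrix arm surround this core. Of them 1, 3, 4 and 8 fell in fl/fl AA 2wk, PTKO AA 2wk, fl/fl AA 4wk and PTKO AA 4wk, with medians of -0.07, -0.11, -0.26 and -0.60 (log2). Ndufv3, a small subunit of the N module, read 132, 110 and 140 RPKM in fl/fl DMSO, 149, 155 and 153 in PTKO DMSO, 82.5, 70.5 and 104 in fl/fl AA 2wk, 73.7, 71.6 and 116 in PTKO AA 2wk, 75.8, 89.8 and 90.6 in fl/fl AA 4wk, and 64.6, 67.2 and 75.2 in PTKO AA 4wk. Its AA libraries lay below its DMSO libraries in all 4 comparisons. It was called in each, with changes of -0.58, -0.84, -0.57 and -1.13 (log2, SE 0.17). Ndufa9, which holds a nucleotide near the quinone site, fell in PTKO AA 2wk, fl/fl AA 4wk and PTKO AA 4wk (-0.54, -0.44 and -0.89) but was not called in fl/fl AA 2wk (-0.31). Its call in fl/fl AA 4wk (limma adjusted p = 0.015, range 0.0011 to 0.13) was lost without fl/fl DMSO library 1 (0.063) or fl/fl AA 4wk library 1 (0.060).

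Ndufa7, on the outside of the matrix arm, was the exception. It read 89.4, 85.2 and 89.4 RPKM in fl/fl DMSO, 85.0, 95.8 and 94.5 in PTKO DMSO, 96.8, 89.2 and 120 in fl/fl AA 2wk, 87.7, 94.8 and 105 in PTKO AA 2wk, 89.5, 90.7 and 95 in fl/fl AA 4wk, and 75.4, 83.2 and 98.6 in PTKO AA 4wk. DMSO and AA libraries overlapped in 3 of the 4 comparisons, and in fl/fl AA 4wk the AA libraries lay just above. No comparison with DMSO was called, with changes of +0.20, +0.06, +0.06 and -0.10 (log2). With median-of-ratios scaling these were -0.19, -0.28, -0.35 and -0.55, the last with a limma adjusted p of 0.0042, and over all alternatives that p ran from 0.0038 to 0.91, so its direction depends on the scaling.

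In the membrane arm, 1, 2, 4 and 8 of the 8 tested proximal accessory subunits fell in the 4 comparisons, and 1, 5, 4 and 10 of the 10 distal ones, where 12.2%, 14.3%, 14.3% and 17.3% of all genes fell. The 1 lower gene in each accessory group in fl/fl AA 2wk, the matrix arm included, is near that share. Ndufa10 (chr1:92439010-92473860 on the minus strand), a relative of nucleoside kinases at the heel of the membrane arm, read 235, 203 and 232 RPKM in fl/fl DMSO, 250, 244 and 241 in PTKO DMSO, 165, 132 and 199 in fl/fl AA 2wk, 126, 137 and 183 in PTKO AA 2wk, 136, 153 and 166 in fl/fl AA 4wk, and 113, 117 and 136 in PTKO AA 4wk. It fell in all 4 comparisons without overlap, by 0.45, 0.73, 0.56 and 1.01 (log2, SE 0.15). It ranked 9 in level among the 36 in fl/fl DMSO and 15 in fl/fl AA 2wk.

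In the distal arm, Ndufb3, an accessory subunit, was called in all 4 comparisons (-0.31, -0.27, -0.51 and -0.67, log2, SE 0.11), and Ndufb5 in all but fl/fl AA 2wk (-0.28, then -0.41, -0.48 and -0.79). At AA 2wk these calls were weak: that of Ndufb3 in fl/fl (limma adjusted p = 0.025) was lost without fl/fl DMSO library 2 (0.11) or fl/fl AA 2wk library 1 (0.079) or 2 (0.12). That of Ndufb3 in PTKO (0.048) was lost under 15 of 28 alternatives, with a range of 0.0004 to 0.18, and that of Ndufb5 in PTKO (0.017) without PTKO DMSO library 3 (0.055) or PTKO AA 2wk library 1 (0.070) or 2 (0.064). Ndufb6, an accessory subunit of the distal arm, read 143, 127 and 166 RPKM in fl/fl DMSO, 159, 144 and 162 in PTKO DMSO, 150, 158 and 220 in fl/fl AA 2wk, 144, 157 and 179 in PTKO AA 2wk, 130, 130 and 142 in fl/fl AA 4wk, and 110, 93.5 and 119 in PTKO AA 4wk. It was the only distal subunit above 0 in PTKO AA 2wk (+0.04) and was called in PTKO AA 4wk alone (-0.53 ± 0.14). Ndufa11, a subunit within the proximal arm, read 28.6, 26.8 and 27 RPKM in fl/fl DMSO, 29.1, 28.2 and 29.5 in PTKO DMSO, 28.8, 24.1 and 35.8 in fl/fl AA 2wk, 24.2, 26.4 and 33.8 in PTKO AA 2wk, 25.2, 27.8 and 27.8 in fl/fl AA 4wk, and 19.9, 20.8 and 25.7 in PTKO AA 4wk. These groups overlapped in all comparisons but PTKO AA 4wk with DMSO. Its changes were +0.08, -0.05 and -0.03, and it fell by 0.38 in PTKO AA 4wk, a call (limma adjusted p = 0.020) lost without PTKO DMSO library 3 (0.052) or PTKO AA 4wk library 1 (0.082) or 2 (0.066), in a range of 0.00013 to 0.082.

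Ndufa4 and Ndufa4l2 moved in opposite directions after remodeling. Ndufa4 read 557, 507 and 739 RPKM in fl/fl DMSO, 691, 619 and 744 in PTKO DMSO, 460, 457 and 628 in fl/fl AA 2wk, 462, 436 and 541 in PTKO AA 2wk, 381, 409 and 440 in fl/fl AA 4wk, and 318, 286 and 362 in PTKO AA 4wk. It was not called in fl/fl AA 2wk (-0.22) and fell by 0.51, 0.54 and 1.09 (log2, SE 0.16) in PTKO AA 2wk, fl/fl AA 4wk and PTKO AA 4wk, where DMSO and AA libraries did not overlap. The call in PTKO AA 2wk (limma adjusted p = 0.012) was lost without PTKO AA 2wk library 2 (0.051), and that in fl/fl AA 4wk (0.0083) without fl/fl DMSO library 3 (0.054), in ranges of 0.0001 to 0.1 and 0.00021 to 0.12.

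Ndufa4l2 (chr10:127514967-127517154 on the plus strand) read 5.17, 6.55 and 2.16 RPKM in fl/fl DMSO, 5.44, 6.83 and 4.78 in PTKO DMSO, 13.3, 5.61 and 6.08 in fl/fl AA 2wk, 7.56, 5.34 and 5.27 in PTKO AA 2wk, 9.59, 11.2 and 8.50 in fl/fl AA 4wk, and 10.5, 10.9 and 15.4 in PTKO AA 4wk. Both AA 4wk groups lay above their DMSO libraries, and the AA 2wk groups overlapped them. It rose by 1.02 ± 0.31 and 0.98 ± 0.31 (log2, SE, limma adjusted p = 0.0099 and 0.011) in fl/fl and PTKO AA 4wk. Without fl/fl DMSO library 3 the first was 0.65 (0.063), and without PTKO AA 4wk library 3 the second was 0.81 (0.051), in ranges of 0.0036 to 0.14 and 0.00055 to 0.17 over the alternatives. With median-of-ratios scaling neither was called (0.67 and 0.58).

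The libraries of each AA group were uneven. Library 3 was the highest of its group for 35 of 36 genes in fl/fl AA 2wk, 34 in PTKO AA 2wk, 30 in fl/fl AA 4wk and 35 in PTKO AA 4wk, against 18 in fl/fl DMSO and 19 in PTKO DMSO. Of fl/fl AA 2wk, 29, 32 and 5 genes of libraries 1, 2 and 3 lay below all 3 DMSO libraries, and in PTKO AA 2wk 33, 32 and 20. The counts were 33, 30 and 26 in fl/fl AA 4wk and 35, 35 and 34 in PTKO AA 4wk. Without both libraries numbered 3, 22 genes fell in fl/fl AA 2wk and 27 in PTKO AA 2wk. In fl/fl AA 2wk the count was 17 without its library 3 alone, 2 without its library 2 and 4 without fl/fl DMSO library 1 or 3. For PTKO AA 2wk the count was 9 without its library 1, 8 without its library 2 and 10 without PTKO DMSO library 1 or 3, and for fl/fl AA 4wk it was 9 without its library 1 or without fl/fl DMSO library 3.

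Markers of cell types also differed between these libraries. The mean of the 15 proximal tubule markers, against fl/fl DMSO, was -1.83, -2.34 and -1.18 (log2) in fl/fl AA 2wk, -2.22, -2.33 and -1.40 in PTKO AA 2wk, -2.18, -2.21 and -1.98 in fl/fl AA 4wk, and -2.35, -3.32 and -2.66 in PTKO AA 4wk. In the same libraries the mean of the 36 subunit genes was -0.20, -0.37 and 0.14, then -0.38, -0.36 and -0.02, then -0.40, -0.29 and -0.20, and -0.66, -0.68 and -0.42. Library 3 was highest in both means in each AA 2wk group and in fl/fl AA 4wk. In PTKO AA 4wk library 1 was highest for the markers and library 3 for the subunit genes. Of the 15 markers 13, 12, 13 and 15 fell, and their summed level was 3825 to 8234 RPKM in fl/fl AA 2wk, 3012 to 6013 in PTKO AA 2wk, 3400 to 5013 in fl/fl AA 4wk and 1903 to 3806 in PTKO AA 4wk. Of all genes 12.2%, 14.3%, 14.3% and 17.3% fell in these comparisons. All 7 macrophage markers rose in each comparison, from a summed level of 72.6 to 112 RPKM in PTKO DMSO to 2943 to 4170 in PTKO AA 4wk. All 3 T cell and all 6 tubule injury markers also rose in each, as did 5, 1, 6 and 6 of 6 fibroblast markers. Of all genes 50.4%, 45.9%, 51.9% and 55% rose. The fibroblast counts were 4, 1, 4 and 5 with median-of-ratios scaling and 4, 1, 4 and 6 with quantile normalization. Those of macrophages, T cells and tubule injury were the same with both. The other nephron and vessel markers were mixed in PTKO AA 4wk: 1 rose and 1 fell of 5 for the thick ascending limb, 0 and 1 of 3 for the distal convoluted tubule, 2 and 2 of 5 for intercalated cells, 2 and 1 of 4 for principal cells, 2 and 1 of 4 for endothelium, and 1 and 0 of 4 for podocytes. Of all genes 55% rose and 17.3% fell there. With either other scaling these were 1 and 2 for intercalated cells, 1 and 1 for principal cells, 0 and 1 for endothelium and 0 and 0 for podocytes. For the distal convoluted tubule quantile normalization gave 0 and 2. Of the 15 proximal tubule markers 13, 13, 14 and 15 fell in the 4 comparisons with median-of-ratios scaling, and 13, 12, 13 and 13 with quantile normalization. The part of these shifts in the subunit changes was not tested.

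Between AA 4wk and AA 2wk of the same genotype the subunit genes were not called as different in fl/fl. There limma called 0 of 36 (0.125% of all genes in either direction), with 2 at an unadjusted p under 0.05 and 0 by voom on recovered reads, 5 with array weights, and a median of -0.18 (log2). The AA 4wk libraries lay wholly below for 4 genes (10.4% of all genes). In PTKO 3 fell (1.56% of all genes fell): Ndufb6 by 0.57 ± 0.14, Ndufc1, a small subunit of the proximal arm, by 0.56 ± 0.15, and Ndufb2, of the distal arm, by 0.41 ± 0.10 (log2, SE, adjusted p = 0.039, 0.047 and 0.045). Ndufc1 read 112, 99.5 and 124 RPKM in fl/fl DMSO, 109, 102 and 123 in PTKO DMSO, 97.1, 99.2 and 125 in fl/fl AA 2wk, 85.2, 101 and 117 in PTKO AA 2wk, 72.4, 93.1 and 94.4 in fl/fl AA 4wk, and 61.8, 63.5 and 78.1 in PTKO AA 4wk. Ndufb2 read 90.9, 89.4 and 92.7 RPKM in fl/fl DMSO, 100, 99 and 92.6 in PTKO DMSO, 86.2, 84.8 and 104 in fl/fl AA 2wk, 81.4, 82.9 and 93.5 in PTKO AA 2wk, 72.4, 80.4 and 78.7 in fl/fl AA 4wk, and 62.2, 56.9 and 75.9 in PTKO AA 4wk. For all 3 genes the PTKO AA 4wk libraries lay below every PTKO AA 2wk library. The libraries of AA 4wk lay wholly below those of AA 2wk for 20 of 36 genes in PTKO, where this held for 8.52% of all genes, and wholly above for 1 (21.1%), Ndufa4l2. With the replicate number as a block, which paired these libraries, 20 genes were called, and with array weights 15. No share of all genes is given for these counts, or for the unadjusted and array-weight counts in fl/fl, so they are a description only. None was called with a pseudocount of 0.1, median-of-ratios scaling, voom or these groups alone. The 3 calls were close to the threshold: 0 remained without fl/fl DMSO library 1, any PTKO DMSO library, PTKO AA 2wk library 2 or 3, fl/fl AA 4wk library 2 or 3, or any PTKO AA 4wk library. The count was 1 without fl/fl AA 2wk library 1 or fl/fl AA 4wk library 1, 5 without fl/fl DMSO library 2, 6 and 16 without fl/fl AA 2wk library 2 and 3, and 8 without PTKO AA 2wk library 1.

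No subunit gene passed the test between genotypes under any treatment, while after remodeling 35 of 36 were lower in PTKO. In DMSO limma called 0 of 36 genes between PTKO and fl/fl (0.0367% of all genes in either direction), with 0 at an unadjusted p under 0.05, 0 by voom and a median of +0.05 (log2). The PTKO DMSO libraries lay wholly above for 3 genes, Ndufa10, Ndufv1 and Ndufv3 (7.88% of all genes), and wholly below for 0 (5.77%). In AA 2wk limma called 0 (0.00734% of all genes), with 0 at an unadjusted p under 0.05 0 by voom and 5 with array weights. The median was -0.11, and the PTKO libraries lay wholly below for 0 genes (4.74%). In AA 4wk limma called 0 (0.00734%), with 19 at an unadjusted p under 0.05, 0 by voom, 15 with array weights and 3 without both AA 2wk libraries numbered 3. The median was -0.31 where that of all genes was +0.03. The percentages of called genes belong to the main limma calls. No share of all genes is given for the unadjusted counts or the alternatives, so those counts are a description only.

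In AA 4wk the 3 PTKO libraries lay below the 3 fl/fl libraries for 22 of 36 genes, where 9.73% of all genes did so. The count was 27 (11.8% of all genes) with median-of-ratios scaling and 24 (12.1%) with quantile normalization. On the deposited scale it covered all subunits of the N and Q module cores, 8 of 10 distal, 4 of 9 matrix accessory and 2 of 8 proximal subunits, and Ndufa4. Some margins were narrow, so this split by role is a description only. The highest PTKO and lowest fl/fl library stood at 97.2 and 97.4 RPKM for Ndufs7, which was counted. They stood at 180 and 179 for Ndufa8, of the proximal arm, which was not. The lowest differences were those of Ndufs1 (-0.40 ± 0.15), Ndufb11 (-0.39 ± 0.14) and Ndufb9 (-0.38 ± 0.17, log2, SE), each with a limma adjusted p of 0.81. Ndufa4l2 alone lay above 0, at +0.29.

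The test of the genotype difference in the response itself gave 0 calls by limma at either time (0.0147% of all genes at 2 weeks and 0.00734% at 4 weeks), with 0 and 7 genes at an unadjusted p under 0.05 and 0 by voom. The unadjusted counts have no share of all genes beside them and are a description only. At AA 4wk the interaction was below 0 for 36 of 36 genes, with a median of -0.37 (log2), where that of all genes was +0.02, and at AA 2wk the median was -0.15. A larger fall in PTKO than in fl/fl was therefore not called for any subunit gene. The proximal tubule markers were also lower in PTKO AA 4wk than in fl/fl AA 4wk (median -0.55, 0 of 15 called), and their part in the difference was not tested.

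**Figure D4:**
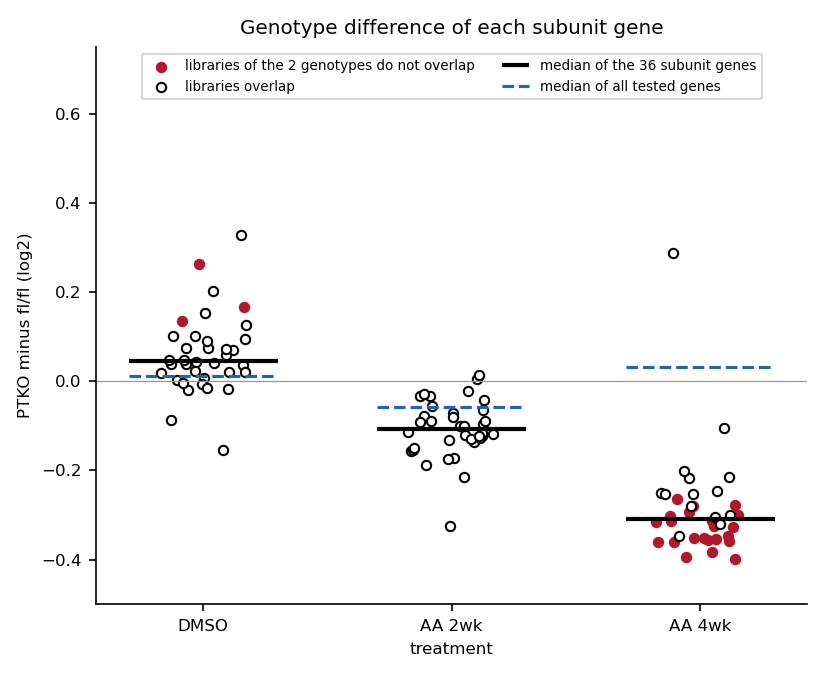
PTKO minus fl/fl (y axis, log2) for each of the 36 genes (points) in DMSO, AA 2wk and AA 4wk (x axis). Red points mark genes whose libraries do not overlap between genotypes, black bars the median of the 36 and dashed bars the median of all tested genes. In AA 4wk the bar lies at -0.31 with 22 red points, and in DMSO at 0.05 with 3.

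How many of the genes that build complex I fell depends on the scaling. On the deposited scale, of the 15 assembly factors 5, 9, 9 and 12 fell in fl/fl AA 2wk, PTKO AA 2wk, fl/fl AA 4wk and PTKO AA 4wk, with medians of -0.27, -0.40, -0.40 and -0.54 (log2), where 12.2%, 14.3%, 14.3% and 17.3% of all genes fell. The counts were 14, 14, 14 and 15 with median-of-ratios scaling, where 27.5%, 27.1%, 29.9% and 33% of all genes fell. They were 12, 14, 15 and 15 with quantile normalization, where 29.7%, 27.7%, 33.8% and 36.5% fell. Acad9 and Ecsit, 2 assembly factors that act together, fell in all 4 comparisons (-0.75, -1.03, -1.08 and -1.19 for Acad9, and -0.66, -0.77, -0.75 and -1.05 for Ecsit). Ndufaf5, a methyltransferase of the Q module, rose in fl/fl AA 2wk (+0.31, limma adjusted p = 0.040), where it was -0.02 with median-of-ratios scaling and -0.22 with quantile normalization, and was not called elsewhere. That call was also lost without fl/fl DMSO library 1 (0.12) or 2 (0.077) or fl/fl AA 2wk library 2 (0.072) or 3 (0.13), in a range of 0.019 to 0.92. Timmdc1, an assembly factor of the membrane arm, was at +0.11, -0.04, +0.05 and -0.10, not called, but fell in all 4 with median-of-ratios scaling (-0.26, -0.36, -0.34 and -0.52). Ndufab1 itself fell in PTKO AA 2wk (-0.50) and PTKO AA 4wk (-0.83) and was not called in fl/fl (-0.21 and -0.36). Its call in PTKO AA 2wk (limma adjusted p = 0.013, range 0.00037 to 0.076) was lost without PTKO DMSO library 3 (0.076) or PTKO AA 2wk library 3 (0.053).

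Of 7 regulators of mitochondrial gene expression, Nrf1, whose motif stands in the promoters above, rose in all 4 comparisons on the deposited scale (+0.42, +0.44, +0.50 and +0.52, log2, in the same order), but was not called with median-of-ratios scaling (+0.10, +0.16, +0.16 and +0.15) and lay below 0 with quantile normalization (-0.14, -0.04, -0.12 and -0.17). Esrra, the estrogen-related receptor alpha, fell in all 4 (-0.36, -0.36, -0.36 and -0.60), as did Ppargc1b, a coactivator (-0.53, -0.70, -0.40 and -0.40). Polrmt, the mitochondrial RNA polymerase, fell in all but fl/fl AA 4wk (-0.27, -0.31, -0.12 and -0.32). There it was called lower in 3 of 28 alternatives (limma adjusted p from 0.00058 to 0.71). Tfam, a mitochondrial DNA packaging factor, fell in both PTKO comparisons (-0.36 and -0.43) and was not called in fl/fl (-0.05 and -0.25). With median-of-ratios scaling Tfam fell in all 4 (-0.42, -0.68, -0.63 and -0.84). On the deposited scale Ppargc1a, the best known coactivator of mitochondrial genes, was not called (+0.05, -0.34, 0.00 and -0.38). In PTKO this depends on the processing. Ppargc1a was called lower in 6 of 28 alternatives for PTKO AA 2wk (limma adjusted p from 0.0056 to 0.23). For PTKO AA 4wk the count was 9 of 28 (0.00099 to 0.19), while no alternative called it in fl/fl. Median-of-ratios scaling and quantile normalization each called 6 of the 7 regulators lower in both PTKO comparisons. Gabpa, an ETS factor, was not called on the deposited scale (+0.05, -0.20, -0.07 and -0.14) but fell in all 4 with median-of-ratios scaling (-0.32, -0.52, -0.46 and -0.56).

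Several of these regulator calls rest on single libraries. By limma, that of Esrra in fl/fl AA 2wk (adjusted p = 0.030, range 0.00043 to 0.14) was lost without fl/fl DMSO library 1 (0.061), 2 (0.069) or 3 (0.053) or fl/fl AA 2wk library 1 (0.073) or 2 (0.14). In PTKO AA 2wk that of Esrra (0.031, range 3.4e-05 to 0.15) was lost without PTKO DMSO library 1 (0.058), 2 (0.068) or 3 (0.070) or PTKO AA 2wk library 1 (0.15) or 2 (0.11). In fl/fl AA 4wk that of Esrra (0.029, range 0.0014 to 0.12) was lost without fl/fl DMSO library 1 (0.059), 2 (0.069) or 3 (0.052) or fl/fl AA 4wk library 1 (0.12) or 2 (0.059), while its call in PTKO AA 4wk held in all 28 alternatives. Ppargc1b kept both AA 2wk calls in all 27. Its fl/fl AA 4wk call (0.036, range 2.6e-06 to 0.15) was lost with a pseudocount of 0.1 (0.055), without fl/fl DMSO library 2 (0.15) or without fl/fl AA 4wk library 1 (0.057), 2 (0.065) or 3 (0.098). Its PTKO AA 4wk call (0.033, range 1.3e-06 to 0.12) was lost without PTKO DMSO library 1 (0.090) or 2 (0.073) or PTKO AA 4wk library 3 (0.12). Tfam, in PTKO AA 2wk (0.034, range 0.0012 to 0.13), was not called without PTKO DMSO library 1 (0.086) or 3 (0.12) or PTKO AA 2wk library 1 (0.067) or 3 (0.13), and in PTKO AA 4wk (0.011, range 6.6e-05 to 0.050) not without PTKO DMSO library 3 (0.050). Polrmt, in fl/fl AA 2wk (0.026, range 0.00014 to 0.27), was not called with array weights (0.27), without fl/fl DMSO library 1 (0.078) or 2 (0.11) or without fl/fl AA 2wk library 2 (0.13), and in PTKO AA 2wk (0.013, range 0.00015 to 0.063) not without PTKO AA 2wk library 1 (0.063).

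In PTKO AA 4wk the complex I median lay between those of complex II and complex IV. On the deposited scale and in the same order of comparisons 3, 4, 4 and 4 of the 4 complex II genes fell, 3, 6, 6 and 9 of 9 complex III genes, 0, 0, 2 and 10 of 15 complex IV genes, 2, 4, 7 and 13 of 14 complex V genes, and 16, 21, 27 and 48 of 76 mitochondrial ribosome genes, where 12.2%, 14.3%, 14.3% and 17.3% of all genes fell. These counts depend on the scaling. With median-of-ratios scaling they were 4, 4, 4 and 4 for complex II, 8, 9, 9 and 9 for complex III, 6, 8, 9 and 11 for complex IV, 9, 11, 12 and 13 for complex V, and 56, 60, 66 and 71 for the ribosome. With quantile normalization they were 1, 2, 3 and 4, then 2, 3, 3 and 7, then 2, 2, 1 and 4, then 1, 1, 0 and 10, and 36, 35, 58 and 62. Of all genes 27.5%, 27.1%, 29.9% and 33% fell with median-of-ratios scaling, and 29.7%, 27.7%, 33.8% and 36.5% with quantile normalization. With the latter, the ribosome alone stood above that share in fl/fl AA 2wk, and all lists but complex IV did in PTKO AA 4wk. The medians in PTKO AA 4wk on the deposited scale were -0.96 for complex II, -0.75 for complex III, -0.67 for complex I, -0.68 for complex V, -0.52 for complex IV and -0.31 for the ribosome (log2). Median-of-ratios scaling put them at -1.41, -1.2, -1.12, -1.10, -0.97 and -0.74 and quantile normalization at -0.57, -0.41, -0.48, -0.32, -0.23 and -0.54, so the place of the ribosome depends on the scaling. The lists were not tested against each other. Cox6b2, a complex IV isoform of testis, rose in all 4 comparisons (+3.19, +2.90, +2.63 and +2.38), and Cox7a2l, a supercomplex factor, did too (+0.28, +0.26, +0.46 and +0.48), but was at -0.11, -0.08, +0.06 and +0.04, not called, with median-of-ratios scaling. At AA 2wk the calls of Cox7a2l were also lost in fl/fl (limma adjusted p = 0.026, range 0.0046 to 0.39) without fl/fl DMSO library 1 (0.15) or 3 (0.055) or fl/fl AA 2wk library 2 (0.060) or 3 (0.065). In PTKO (0.037, range 0.0013 to 0.56) this was so without PTKO DMSO library 1 (0.056) or 2 (0.15) or PTKO AA 2wk library 1 (0.15) or 3 (0.051).

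**Figure D5:**
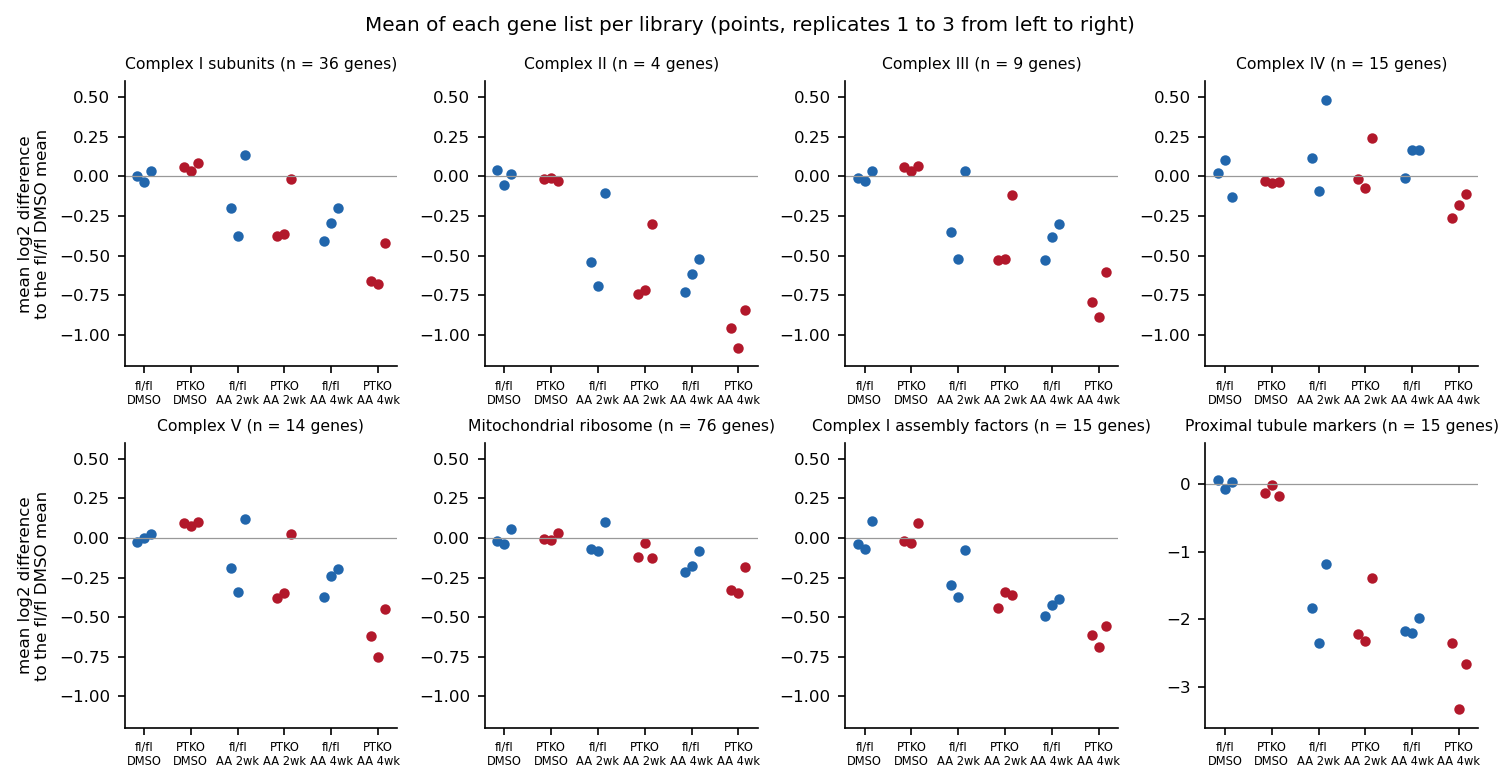
Mean log2 difference to the fl/fl DMSO mean (y axes, with a wider scale for the proximal tubule markers) for 8 gene lists, by group (x axis). Points are libraries, replicates 1 to 3 from left to right, blue for fl/fl and red for PTKO. In PTKO AA 4wk the complex I mean lies at -0.66, -0.68 and -0.42, and the proximal tubule mean at -2.35, -3.32 and -2.66.

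Across the 35 tested subunit genes without Ndufa4l2, longer gene models tended to have the lower change, with Spearman coefficients of -0.33, -0.42, -0.20 and -0.32 in the 4 comparisons with DMSO. These are across genes that share the same libraries and are given as a description. Level in fl/fl DMSO was less related to the change (-0.15, -0.17, -0.11 and -0.13). The 5 tested genes with an NRF1 match changed by -0.38 (Ndufa11), -0.64 (Ndufa5), -0.46 (Ndufa8), -0.78 (Ndufb4) and -0.60 (Ndufs6) in PTKO AA 4wk, within the range of the other subunit genes.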

How the data were processed

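RNA of kidney cortex was sequenced as stranded total RNA libraries, per the labels' protocols. The deposited table holds RPKM values by gene name, per the file headers. The submitters' processing notes name bcl2fastq 2.19, kallisto and mm10, and the counting step and annotation were not given in the sources used here. Low RPKM values were whole multiples of 1 read: all 17579 genes above 0 in at least 6 libraries (100%, within 0.02 reads) gave whole reads, for 10980643 to 21922497 reads per library. These reads entered alternatives only.

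The members and lists were chosen with earlier results of these data known. Genes at 1 RPKM or more in at least 3 libraries were fitted on log2(RPKM + 1) with limma 3.58.1 (R 4.3.3, statmod 1.5.0) as 6 group means, with a trended, robust prior. Tests were two-sided with Benjamini-Hochberg adjustment over 13624 genes, and a call is an adjusted p under 0.05. Fold changes on this scale understate changes of low genes. Single genes compared over 3 libraries against 3 cannot go below an exact permutation p of 0.1. On simulated data for AA 2wk against DMSO in fl/fl, 164 of 200 changed genes of 12151 were recovered, and 5 unchanged genes were called. The simulation drew all groups from the fl/fl DMSO mean with a fixed spread, and changed as many genes up as down. It held no uneven library and no wide rise of the kind in the real comparison. These rates therefore check the code and do not carry over to the real data.

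Named with values in every library were the nuclear core subunits, the 3 lowest and 3 highest subunit genes in each comparison with DMSO, members called in the other comparisons, Ndufa4 and Ndufa4l2. Ndufa10 and other examples with the largest change in a role group, the regulators, and the extremes of the assembly factors and complex IV were named beside them. 1 of the 36 tested genes is not reported by name here and stays in the counts. Replicate numbers were checked for pairing by the correlation of deviations from group means. Every pair passed 0.1 in PTKO AA 4wk against AA 2wk (0.101 to 0.243) and in PTKO against fl/fl at AA 2wk (0.431 to 0.663). Alternatives were a pseudocount of 0.1, stricter and no filters, median-of-ratios scaling, quantile normalization, voom on recovered reads, array weights, the compared groups alone, a replicate block and each library left out. The count of separated libraries under median-of-ratios scaling and quantile normalization was added after seeing the data. Near copies were found with blastn 2.17.0 against GENCODE transcripts, and promoters are from RefSeq.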

Additional observations from a re-analysis of the deposited data

How the results depend on the processing

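The number of subunit genes that fell against DMSO was least steady where the fall was small. In fl/fl AA 2wk (7) it was 28 with median-of-ratios scaling, 3 with quantile normalization, 27 with voom, 13 with array weights, 2 in a fit of the compared groups alone, 12 with a replicate block, and 22 without both AA 2wk libraries numbered 3. In PTKO AA 2wk (16) it was 29, 9, 31 and 30 with the first 4 of these, and 27 without both libraries. In fl/fl AA 4wk (18) it was 34, 7 and 34 with the first 3, and 28 without both libraries. In PTKO AA 4wk (34) no alternative moved it past 1.5 times. For PTKO AA 4wk against AA 2wk (3) it was 0 with a pseudocount of 0.1, median-of-ratios scaling, voom or the compared groups alone, 15 with array weights and 20 with a replicate block. Array weights gave 5 for fl/fl AA 4wk against AA 2wk, 5 for PTKO against fl/fl in AA 2wk and 15 in AA 4wk, each 0 otherwise, and the last was 3 without both libraries numbered 3. With 1 library left out in turn the ranges were 2 to 17, 8 to 21, 9 to 23 and 33 to 34 against DMSO, 0 to 16 for PTKO AA 4wk against AA 2wk, and 0 to 0 for the others. The replicate block changed no other count by more than 1.5 times, and the cause of these differences was not tested. Shares of all genes called are given above for median-of-ratios scaling and quantile normalization against DMSO only. The counts of the other alternatives are therefore a description only.

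Genes near 0 turned sign (log2). For fl/fl AA 2wk, quantile normalization gave 0.038 for Ndufv2 and 0.055 for Ndufa4, while median-of-ratios scaling and voom gave -0.19 and -0.18 for Ndufa7 and -0.13 with each for Ndufb6. With 1 library left out Ndufv2 ran from -0.30 to 0.049, above 0 without fl/fl AA 2wk library 2. For PTKO AA 2wk, Ndufa4l2 was -0.22 with median-of-ratios scaling and voom and -0.33 with quantile normalization, and it ran from -0.073 to 0.19 with 1 library left out, below 0 without PTKO DMSO library 3 or PTKO AA 2wk library 1. There Ndufb6 was -0.29 with median-of-ratios scaling and voom, -0.074 with array weights and -0.039 without both AA 2wk libraries numbered 3, and it ran from -0.039 to 0.12. Ndufa7 was -0.28, -0.27 and -0.0071 with the first 2 of these and without both libraries, and ran from -0.0071 to 0.12. For fl/fl AA 4wk, Ndufa7 was -0.35 and -0.34 with median-of-ratios scaling and voom, and Ndufa11 ran from -0.052 to 0.016, above 0 without fl/fl AA 4wk library 1. For PTKO AA 4wk, Ndufa7 was 0.037 with quantile normalization.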
